A study of Mus musculus with 6 samples.

Results

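The genes described here encode the nuclear-encoded subunits of the mitochondrial respiratory chain and of the ATP synthase, here in 344SQ, a lung cancer line of the mouse. They were chosen by name: probe sets with 1 annotated symbol that begins with Ndufa, Ndufb, Ndufc, Ndufs or Ndufv and a digit, with Cox4 to Cox8, with Uqcr or with Atp5, together with Sdha to Sdhd and Cyc1. This gave 165 of the 45101 probe sets on the array, for 82 of the 18193 genes tested. Another 9 probe sets name such a gene together with a second gene and were left out. Cells carried either a vector for a control short hairpin RNA (shRNA) or a vector for an shRNA against mouse Pik3ca, the gene of the p110-alpha catalytic subunit of phosphoinositide 3-kinase. Both vectors went into the same line by lipid transfection and both groups grew in RPMI 1640 medium with serum. Each group had 3 Affymetrix arrays with 1 linear intensity per probe set. The number of hairpins, the control hairpin's sequence and the time between transfection and harvest are not given in the sources used here.

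Pik3ca itself read 51.9% of control by its brightest probe set (limma adjusted p = 0.000762). Nothing in the labels says that replicates came from separate cultures, so p-values measure the spread between these arrays, which may be technical. Of 7 epithelial markers, 5 were above the median brightness of all genes and 0 were called. Krt8, for example, was at 11903 in control and 12469 in PIK3CA shRNA cells, and Cdh1 at 11344 and 11047. Of the lung markers, Sftpb was well above the median gene intensity of 246, at 1223 and 1389, while Nkx2-1 (116 and 102), Sftpc (94.2 and 90.2) and Scgb1a1 (24.0 and 16.1) were below it. The 6 measured leukocyte markers summed to between 573 and 768 per control array and between 638 and 745 per PIK3CA shRNA array, 0 of them called. The 7 fibroblast markers summed to 668 to 684 in control and 455 to 748 in PIK3CA shRNA cells, with Dcn called lower, and the 4 endothelial markers to 492 to 578 and 526 to 646, with 0 called. In bulk RNA, fewer cells of a type and less RNA per cell cannot be told apart.

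The respiratory chain moves electrons from NADH (complex I) and succinate (complex II) through coenzyme Q to complex III, on by cytochrome c to complex IV, and there to oxygen, while complexes I, III and IV pump protons out of the mitochondrial matrix. The ATP synthase lets protons flow back through its membrane part and uses that flow to make ATP in its F1 head. Each of these complexes except complex II also holds subunits encoded in the mitochondrial genome, and most hold small accessory subunits around a core that does the chemistry.

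The genes lay slightly lower in PIK3CA shRNA cells as a group, and the shift was small for each gene. Changes are PIK3CA shRNA minus control on the log2(intensity + 16) scale. Of the 82 genes, 65 had a negative and 17 a positive change, with a median of -0.13, against a median of -0.01 over all 18193 genes. In the limma fit over all genes, 15 genes fell and 1 rose at adjusted p 0.05, while 66 did not pass. Over all genes 5.62% passed as lower and 5.88% as higher, 11.5% in all. None of the 16 genes called changed by as much as 2-fold. The 15 lower genes read between 63.6% and 85.1% of control. In 44 genes all PIK3CA shRNA arrays were below all control arrays and in 5 they were above, where 17% of all genes were lower without overlap and 16.1% higher.

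Of the 82 genes, 74 were above the median brightness. Among the 2564 genes at least as bright as the lower quartile of the 82, the median change was 0.00 (-0.0042), and 221 were called higher and 231 lower. Measured as the median deviation of the 82 genes from their mean over all arrays, the control arrays stood at 0.057, 0.084 and 0.067 and the PIK3CA shRNA arrays at -0.053, -0.073 and -0.059, with no overlap.

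**Figure D1:**
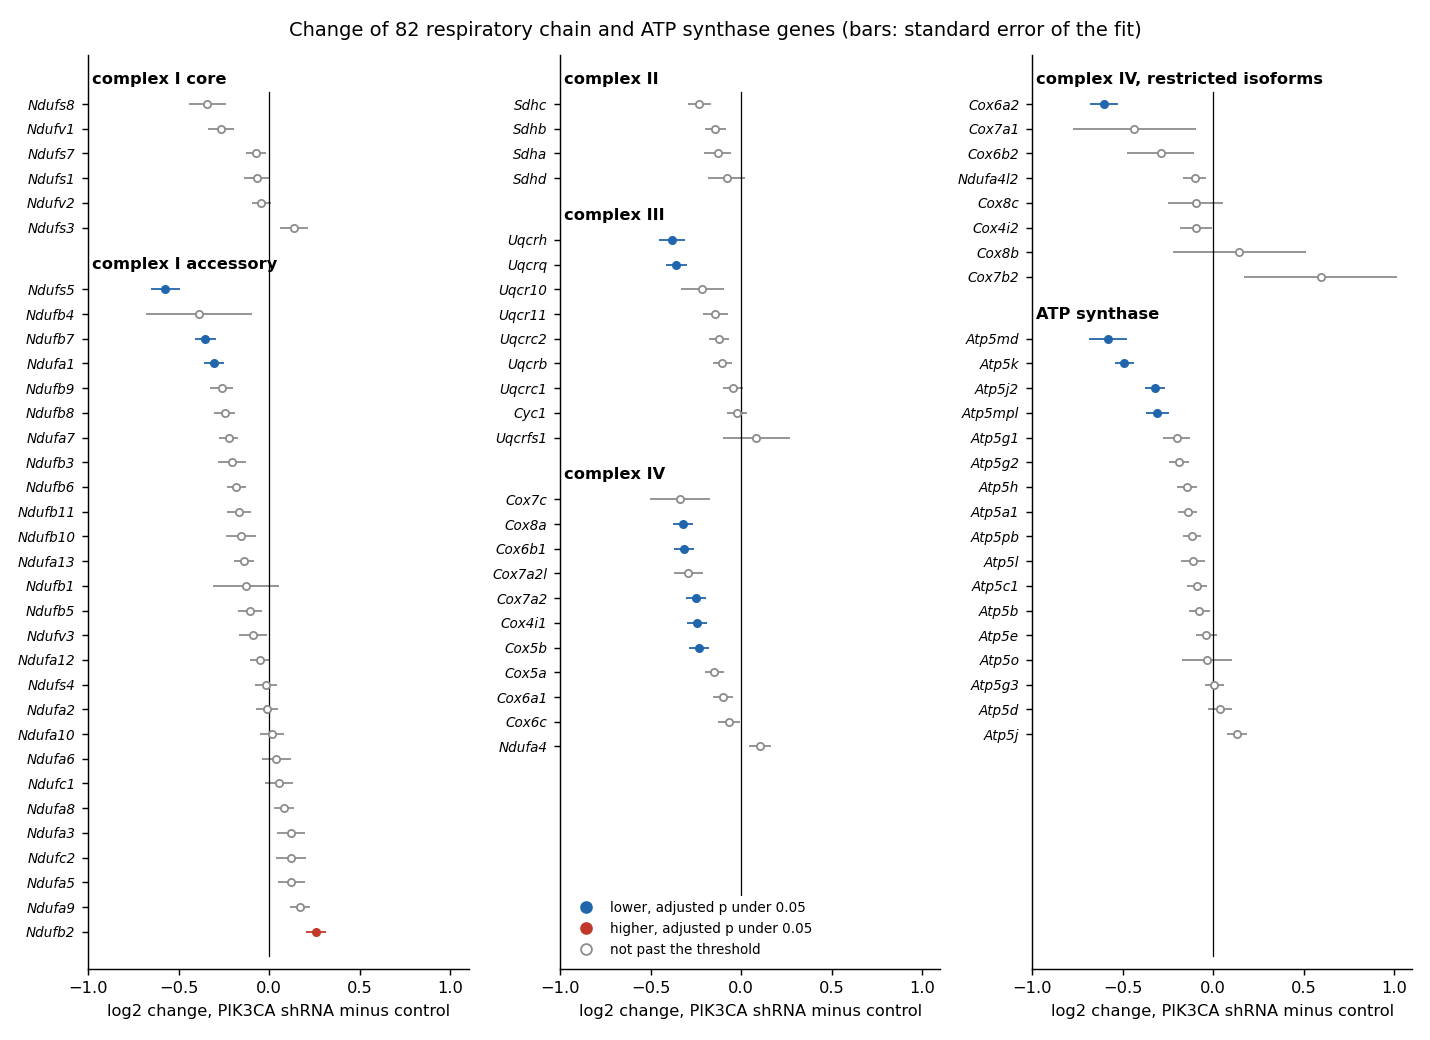
Each point is 1 of the 82 genes, with its log2 change (PIK3CA shRNA minus control) on the horizontal axis, a bar for the standard error of the limma fit, and genes grouped by complex. Filled points passed adjusted p 0.05: 15 genes in blue lie to the left of 0 and Ndufb2 in red to the right, and open points did not pass.

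Complex I, the NADH dehydrogenase and entry point of the chain, had 3 genes lower and 1 higher of 33, all 4 of them accessory subunits. This is 12.1% called, near the 11.5% of all genes and below the 17.6% of the 2564 bright genes. Ndufb7 and Ndufb2, 2 of the 4, did not pass with chromosome medians taken out. The median change of the 33 was -0.09. Ndufs5, an accessory subunit on the intermembrane space side, read 935, 953 and 926 on the control arrays and 674, 570 and 637 on the PIK3CA shRNA arrays. It fell by 0.57 on the log2 scale with a standard error of 0.08 (adjusted p = 0.0110), and the groups lay far apart. Ndufb7, another subunit of that side, read 2439, 2282 and 2368 in control and 1796, 1905 and 1838 in PIK3CA shRNA cells, a change of -0.35 (adjusted p = 0.0204). Ndufa1, a small membrane subunit needed for assembly of the complex, read 6351, 6203 and 6395 in control and 5086, 5030 and 5225 in PIK3CA shRNA cells. Its change was -0.30 (adjusted p = 0.0232), so for both genes every PIK3CA shRNA array was below every control array. Ndufb2, the gene that rose, is an accessory subunit of the membrane arm and read 1615, 1670 and 1653 in control and 1942, 1949 and 2025 in PIK3CA shRNA cells (0.26, adjusted p = 0.0381).

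The redox core of complex I, the subunits that carry the flavin and iron-sulphur clusters or build the coenzyme Q site, had 0 of 6 measured genes called. Ndufs8, which holds iron-sulphur clusters, had the largest negative value at -0.34, reading 4848, 5278 and 4554 in control and 4317, 3559 and 3710 in PIK3CA shRNA cells (adjusted p = 0.0982). Ndufv1, the flavin-binding NADH site, was at -0.27 (adjusted p = 0.0774). Ndufs3 was on the other side of 0 at 0.14 (adjusted p = 0.336), and the remaining 3 lay between -0.07 and -0.05. A second Ndufv1 probe set passed among all probe sets (-0.42, adjusted p = 0.0282), and Ndufv1 passed in 5 other settings, among them dim genes left out (adjusted p = 0.0184). Ndufs8 passed with dim genes left out (adjusted p = 0.0276) and with an intensity trend (0.0236). At an unadjusted p of 0.05, 2 of the 6 passed, where 25.9% of all genes and 39.1% of the 2564 bright genes did. Just outside the threshold among the accessory subunits were Ndufa7 (-0.22, adjusted p = 0.0512), Ndufb8 (-0.25, adjusted p = 0.0526) and Ndufb9 (-0.26, adjusted p = 0.0559), which were named after their values were seen.

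Complex II, succinate dehydrogenase, which also works in the citric acid cycle, had 0 of 4 genes called by limma, and 2 of 4 at an unadjusted p of 0.05, reached by 25.9% of all genes. All 4 values were negative. Sdha, the flavoprotein, was at -0.13 (adjusted p = 0.343), and Sdhb, the iron-sulphur subunit, at -0.14 (adjusted p = 0.193). Of the membrane anchors, Sdhc read 3327, 3197 and 3010 in control and 2686, 2696 and 2732 in PIK3CA shRNA cells (-0.23, adjusted p = 0.0751). Sdhd was at -0.08, with 1127, 1337 and 1445 on the PIK3CA shRNA arrays against 1351 to 1396 in control, so that its groups overlapped. Sdhc passed at a pseudocount of 64 (adjusted p = 0.0460) and with dim genes left out (adjusted p = 0.0163). With an intensity trend both Sdhc (adjusted p = 0.00998) and Sdhb (0.0336) passed.

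Complex III, which passes electrons from coenzyme Q to cytochrome c, had 2 of 9 genes lower and 0 higher. The share called was 22.2%, beside 11.5% of all genes and 17.6% of the 2564 bright genes. Uqcrh, the acidic hinge protein beside cytochrome c1, read 3978, 3729 and 3771 in control and 3047, 2726 and 3036 in PIK3CA shRNA cells. The gene fell by 0.38, with 0.07 as standard error (adjusted p = 0.0278). Uqcrq, a small subunit next to cytochrome b, read 2934, 2915 and 2831 in control and 2246, 2169 and 2348 in PIK3CA shRNA cells (-0.36, adjusted p = 0.0193). In both genes the groups were separate. The subunits that carry the redox centres were near 0: Cyc1, cytochrome c1, changed by -0.02 (adjusted p = 0.831), with groups that overlapped, and Uqcrfs1, the Rieske iron-sulphur protein, by 0.08 with a standard error of 0.19 (adjusted p = 0.828). The 4 redox and structural core subunits had a median of -0.03, and the 5 small ones a median of -0.21.

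Complex IV, cytochrome c oxidase, had 5 of its 11 widely expressed subunits lower and 0 higher. This is 45.5% called, beside 11.5% of all genes and 17.6% of the 2564 bright genes. The count depended on the setting: it was 2 with chromosome medians taken out and 0 with the mean of probe sets. The median was -0.24 and 9 of the 11 were lower with no overlap, where 17% of all genes and 30.2% of the bright genes were. The nuclear subunits surround a catalytic core made in mitochondria. Cox6b1, on the intermembrane space side, read 8346, 8862 and 8532 in control and 6907, 6894 and 6833 in PIK3CA shRNA cells (-0.32, adjusted p = 0.0223). Cox8a, the smallest subunit, read 4422, 4532 and 4277 in control and 3526, 3547 and 3493 in PIK3CA shRNA cells (-0.32, adjusted p = 0.0209). The PIK3CA shRNA arrays agreed closely in these 2 genes and lay well under control.

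The other 3 changes in complex IV were smaller and close to the threshold. Cox7a2 read 9758, 9780 and 9707 in control and 8003, 8372 and 8219 in PIK3CA shRNA cells (-0.25, adjusted p = 0.0390). Cox4i1, the main form of the regulatory subunit that binds ATP, read 8910, 8933 and 8596 in control and 7578, 7277 and 7484 in PIK3CA shRNA cells (-0.24, adjusted p = 0.0468). Cox5b, a zinc-binding subunit on the matrix side, read 8812, 8675 and 8658 in control and 7315, 7623 and 7319 in PIK3CA shRNA cells (-0.23, adjusted p = 0.0495). In all 3 the groups were separate. Cox7c had the largest negative value of the 11, -0.34, but its groups overlapped (adjusted p = 0.282). Ndufa4, once assigned to complex I and now counted with complex IV, had the one positive value at 0.10 (adjusted p = 0.375), and Cox7a2l, which links complexes III and IV, was at -0.29 (adjusted p = 0.0823).

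Complex IV also has isoforms that are known mainly from muscle, testis or hypoxic tissue, and 7 of these 8 were below the median brightness. Of the 8 isoforms 12.5% were called, near the 11.5% of all genes. Cox6a2, the heart and skeletal muscle form of subunit VIa, was the 1 gene called: it read 222, 222 and 223 in control and 146, 127 and 152 in PIK3CA shRNA cells, a change of -0.60 with a standard error of 0.08 (adjusted p = 0.00985). Its second, dimmer probe set read 33.1 and 41.9 on average and was at 0.24 without passing. Cox6a1, the widely expressed form of that subunit, was at -0.10 (adjusted p = 0.333) by its brightest probe set. A second Cox6a1 probe set read 6016 in control and 4662 in PIK3CA shRNA cells, a change of -0.37 that passed among all probe sets (adjusted p = 0.0416). Cox4i2, the form known from lung and low oxygen, was at -0.09 (adjusted p = 0.587), and Cox8c, a testis form, at -0.10, neither past the threshold. Cox7a1 (-0.43), Cox6b2 (-0.29), Cox8b (0.14) and Cox7b2 (0.59) were below the median brightness, with standard errors of 0.19 to 0.42, and none passed. Ndufa4l2, a hypoxia-induced relative of Ndufa4, was at -0.10 (adjusted p = 0.380). The highest Cox7b2 value rested on 1 array, at 43.1 beside 6.09 and 4.62. Of 9 muscle structural genes, 0 were called, with a median of -0.02.

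The ATP synthase had 4 of 17 genes lower and 0 higher, and the 4 are small subunits of its membrane part. The share called was 23.5%, beside 11.5% of all genes and 17.6% of the 2564 bright genes. Atp5md, whose product is also known as DAPIT, read 4134, 3732 and 3359 in control and 2304, 2460 and 2720 in PIK3CA shRNA cells. It fell by 0.58 with a standard error of 0.11 (adjusted p = 0.0261), the widest spread of the 4. Atp5k, subunit e, which helps synthase dimers form, read 4090, 4177 and 4023 in control and 2895, 2904 and 2930 in PIK3CA shRNA cells. This change of -0.49 had a standard error of 0.05 (adjusted p = 0.00534), the smallest adjusted p of the 82 genes, and the arrays of each group agreed closely. Atp5j2, subunit f, read 10664, 10508 and 10413 in control and 8429, 8686 and 8190 in PIK3CA shRNA cells (-0.32, adjusted p = 0.0222). Atp5mpl, which encodes the 6.8 kDa proteolipid, read 3875, 4269 and 4144 in control and 3220, 3413 and 3284 in PIK3CA shRNA cells (-0.31, adjusted p = 0.0383). The remaining small membrane subunit, Atp5l, was at -0.11 (adjusted p = 0.378).

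The F1 head, c ring and peripheral stalk of the synthase showed 0 called genes. At an unadjusted limma p of 0.05, 4 of these 12 genes passed, against 25.9% of all genes and 39.1% of those as bright. Atp5g2 passed with dim genes left out (adjusted p = 0.0191) and with an intensity trend (0.00717), where Atp5a1, Atp5h, Atp5pb and Atp5j also passed, and Atp5c1 with chromosome medians taken out (-0.28, adjusted p = 0.0410). The F1 head genes Atp5a1, Atp5b, Atp5c1, Atp5d and Atp5e had changes of -0.14, -0.08, -0.09, 0.04 and -0.04. The 3 genes of the c ring, which turns as protons pass, encode the same mature protein from separate loci: Atp5g1 was at -0.20 (adjusted p = 0.165), Atp5g2 at -0.19 (adjusted p = 0.0904) and Atp5g3 at 0.01 (adjusted p = 0.955). The peripheral stalk genes had a median of -0.07, with Atp5j the highest at 0.13 (adjusted p = 0.218).

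**Figure D2:**
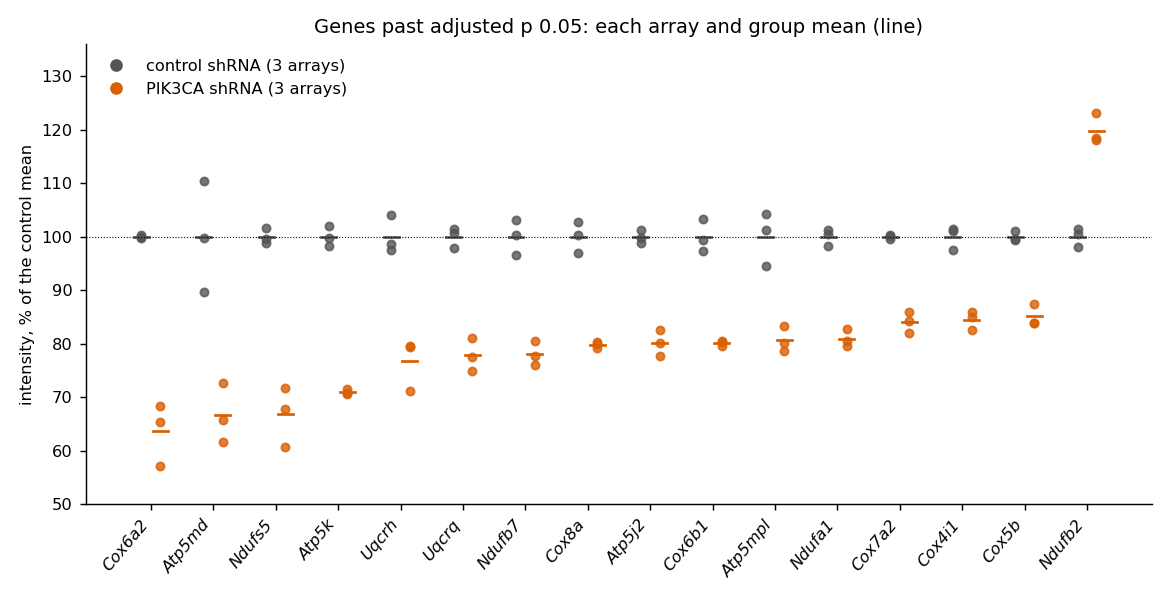
For each of the 16 genes past adjusted p 0.05, the 3 control arrays (grey) and the 3 PIK3CA shRNA arrays (orange) are drawn as percent of the gene's control mean, with a line at each group mean. Groups are separate in all 16, from 63.6% of control for Cox6a2 to 85.1% for Cox5b, with Ndufb2 at 120%.

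In the fit over all genes, the calls were unevenly spread over the kinds of subunit. Of 48 small or accessory subunits 14 fell and 1 rose, with a median of -0.16. This class includes all 11 widely expressed subunits of complex IV. Of 26 core or catalytic subunits 0 fell and 0 rose, with a median of -0.08. These are the complex I core, complex II, the complex III core, and the F1 head, stalk and c ring of the synthase. The other call is the isoform Cox6a2. The 0 of 26 did not hold in every setting. Of all genes, 3024 were called with dim genes left out and 3192 with an intensity trend. Core calls numbered 4 with dim genes left out, against 22 of 47 accessory calls, and 10 with an intensity trend, against 26. They numbered 2 at a pseudocount of 64 and 1 with the mean of probe sets, with the most variable probe set and with chromosome medians taken out. Accessory calls were fewer in those last 3 settings: 8, 8 and 9 of 48, with 1510, 1554 and 1567 of all genes called. They were 4 with all probe sets tested (1253 of all genes called) and 2 or 3 without 1 array (945 to 1138), where core calls were 0. The share of genes lower with no overlap was close in both classes, 58.3% of accessory and 53.8% of core genes, with 30.2% among the 2564 bright genes. At an unadjusted p of 0.05, 24 of the 48 and 8 of the 26 (30.8%) passed, against 39.1% of the bright genes. Brightness was alike in these classes, with median mean log2 values of 11.90 and 11.94, and so was the median standard error, 0.062 and 0.057. This division was made after the values were seen, the difference between the classes was not tested, and both medians are below that of all genes as bright.

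**Figure D3:**
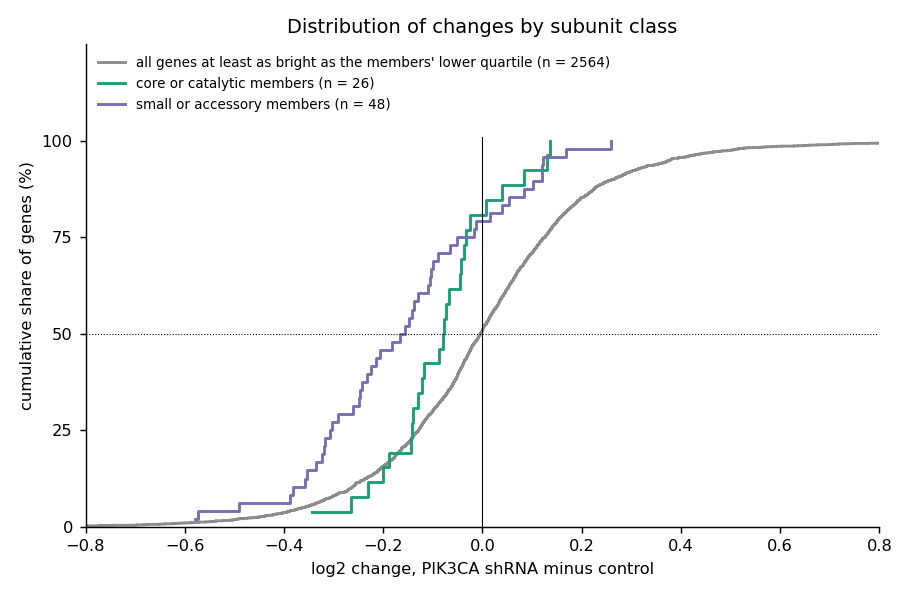
Cumulative share of genes, in percent, against log2 change (PIK3CA shRNA minus control) for 48 small or accessory subunits, 26 core or catalytic subunits and the 2564 genes at least as bright as the lower quartile of the 82. The grey line crosses 50% at 0.00, the green line at -0.08 and the purple line at -0.16.

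A further grouping takes in 4 of the called genes. Ndufs5, Ndufb7, Uqcrh and Cox6b1 were grouped here as twin CX9C-type proteins, with cysteine pairs that are oxidised in the intermembrane space. Cysteine spacing was not checked against protein sequences, and in some of the group, such as Uqcrh and Ndufb10, it may differ from CX9C. Among the 7 genes so grouped, 4 were lower, where 5.62% of all genes were. Ndufb10 (-0.16), Ndufa8 (0.08) and Cox6b2 (-0.29) did not pass. Ndufb7 did not pass with chromosome medians taken out (limma adjusted p = 0.372). Ndufs5 passed in all 6 fits without 1 array, and Ndufb7, Uqcrh and Cox6b1 in 0 of them. The twin CX9C group, too, was formed after the values were seen.

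Promoters of respiratory chain genes are known for sites of NRF1 and of ETS family factors such as GABP. The 250 bases before the start of transcription were searched on both strands for GCGCA, any base and GCGC in a row (NRF1-type), CCGGAAG (ETS-type) and AAGATGGC (YY1-type) in the RefSeq promoter table of build GRCm38.p6, which matched 66 of the 82 genes. The NRF1-type letters stood before 11 of the 66 (16.7%) against 4.23% of 27025 genes, the ETS-type letters before 12 (18.2%) against 7.83%, and the YY1-type letters before 1 (1.52%) against 1.83%. Of the 11 lower genes that matched, 2 held the NRF1-type and 3 the ETS-type letters. Such matches are descriptions of letters and not of bound sites. The windows of 3 lower twin CX9C genes, chosen because no other listed gene overlaps them, are printed 5′ to 3′ along the gene's strand with the match in capitals: NRF1-type for Ndufs5 (chr4:123718187-123718436, minus strand), and ETS-type for Cox6b1 (chr7:30626115-30626364, minus strand, matched on the opposite strand as CTTCCGG) and Ndufb7 (chr8:83566508-83566757, plus strand).
Ndufs5: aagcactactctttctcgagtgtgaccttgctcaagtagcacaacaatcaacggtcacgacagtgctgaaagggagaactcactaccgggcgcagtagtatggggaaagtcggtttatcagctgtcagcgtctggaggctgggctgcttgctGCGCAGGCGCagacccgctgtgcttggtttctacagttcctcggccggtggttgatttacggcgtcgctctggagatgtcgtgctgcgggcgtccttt
Cox6b1: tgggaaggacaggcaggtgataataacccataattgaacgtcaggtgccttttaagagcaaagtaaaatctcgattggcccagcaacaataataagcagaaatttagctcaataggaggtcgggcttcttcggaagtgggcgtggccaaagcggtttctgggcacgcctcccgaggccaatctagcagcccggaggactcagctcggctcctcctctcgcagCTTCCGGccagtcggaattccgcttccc
Ndufb7: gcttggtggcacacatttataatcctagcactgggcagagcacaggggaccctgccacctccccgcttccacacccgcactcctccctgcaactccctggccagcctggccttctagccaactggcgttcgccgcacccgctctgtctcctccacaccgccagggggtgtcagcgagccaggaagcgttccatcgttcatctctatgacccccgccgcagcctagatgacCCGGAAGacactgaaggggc
The match lies 98 to 89 bases before the start in Ndufs5, 28 to 22 in Cox6b1 and 20 to 14 in Ndufb7.

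Chromosome position went with some of these values. Among genes above the median brightness, the median change was -0.25 on chromosome 8 and -0.15 on chromosome 5, but 0.20 on chromosome 2 and 0.18 on chromosome 6, and between -0.05 and 0.04 on the other autosomes and X. Cox4i1 and Ndufb7 are on chromosome 8, Atp5k and Atp5j2 on chromosome 5, and Ndufb2, the gene that rose, on chromosome 6, where the 4 members had a median of 0.14. After each chromosome's median was taken out of each array, a step added after the data were seen, Cox4i1 was at 0.01 (adjusted p = 0.938), Ndufb7 at -0.10 (0.372), Ndufb2 at 0.08 (0.434) and Atp5j2 at -0.17 (0.136), while Atp5k was still lower (-0.34, adjusted p = 0.0196). Cox5b (0.0529) and Cox7a2 (0.0572) also missed the threshold there, Atp5c1 entered, and 11 genes were lower and 0 higher. The median of the 82 was then -0.13. Outside chromosomes 2, 5, 6 and 8, 56 of 65 members had a negative change with a median of -0.14, against -0.01 for the 13749 genes there.

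**Figure D4:**
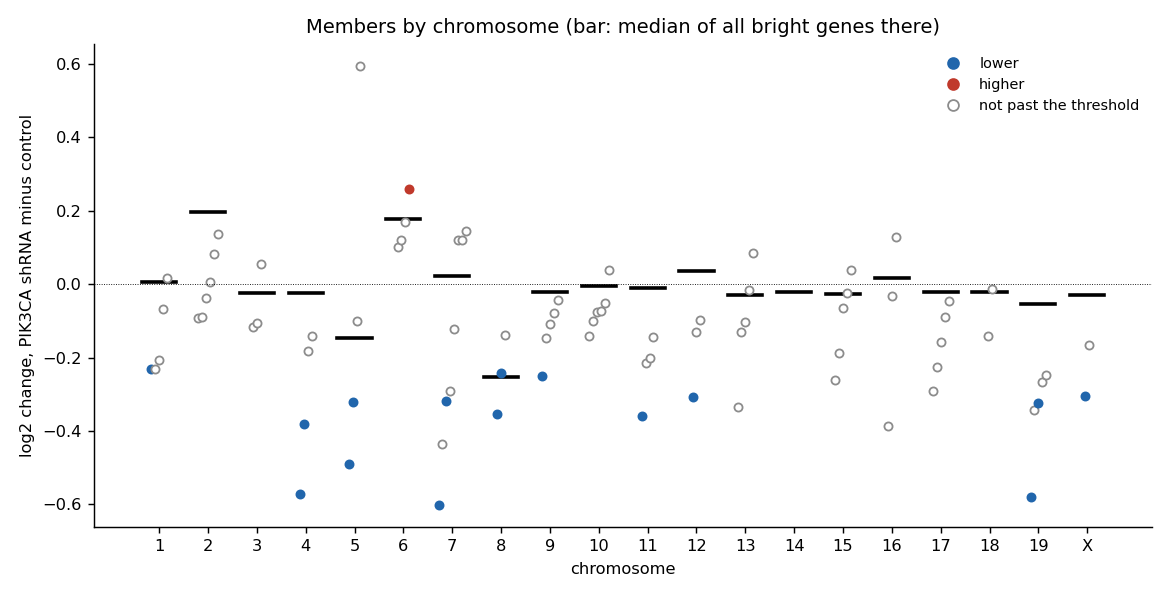
Log2 change (PIK3CA shRNA minus control) of each member by chromosome, with a black bar at the median change of all genes above the median brightness on that chromosome. Chromosome 8 has its bar at -0.25 with Cox4i1 on it, and chromosome 6 has its bar at 0.18 under Ndufb2, while most blue points elsewhere lie well below their bar.

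Probe sets of the same gene mostly pointed the same way where they were bright. Of the 165 probe sets, 133 had a negative change, 13 passed as lower and 0 as higher when all 45037 non-control probe sets were tested, against 2.3% lower and 2.64% higher overall (4.94% in all). The 13 belong to 12 genes, 3 of which (Ndufv1, Cox7a2l and Cox6a1) were not called by their brightest probe set. Of the 16 genes called, 11 have several probe sets, and in 7 of these all had the same sign. In Atp5k all 3 were negative, from -0.64 to -0.49. In Cox5b the 4 bright ones lay between -0.45 and -0.23, and dim ones at -0.13 and 0.16. Uqcrq differed: its 3 dimmer probe sets, at 34.9, 79.3 and 264 in control, were at 0.62, 0.55 and 0.10, none past the threshold, so that the mean over its probe sets was 0.23.

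**Figure D5:**
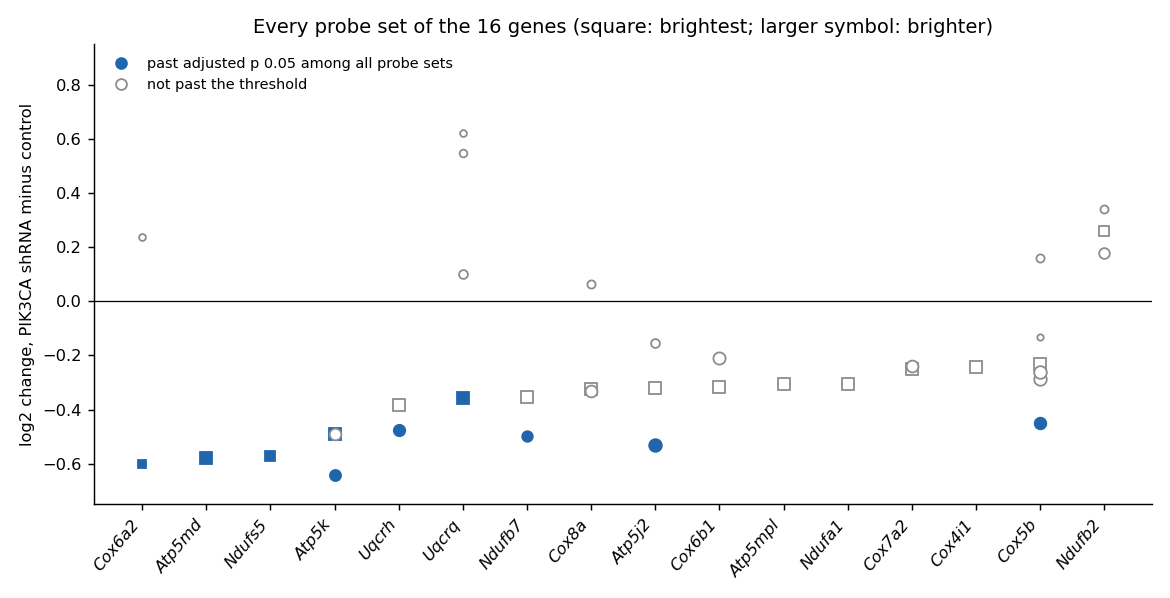
Log2 change (PIK3CA shRNA minus control) of every probe set of the 16 called genes, with a square for the brightest, a larger symbol for a brighter probe set, and blue fill where it passed adjusted p 0.05 among all probe sets. The small symbols above 0 for Uqcrq, Cox6a2, Cox8a and Cox5b are dim probe sets that did not pass.

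The calls depended on all 6 arrays. Without 1 array, 3 of the 82 genes were lower when control replicate 1 or 2 or any PIK3CA shRNA replicate was left out, and 4 without control replicate 3. Calls over all 18193 genes, in both directions, also fell in these fits, from 2093 to between 945 and 1138. The loss of calls was thus not particular to the members. Atp5k, Ndufs5 and Cox6a2 passed in all 6 of these fits, Atp5md in 1 and the other 12 in 0. The median of the 82 stayed between -0.15 and -0.12. At adjusted p 0.01, Atp5k and Cox6a2 were the 2 members called, beside 636 of all genes.

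Genes that act on the same pathway from outside the complexes were read from the same fit. Of all genes 11.5% were called, and of those above the median brightness 17.6%, beside which the shares of these lists are to be read. Of 13 regulators of mitochondrial biogenesis, 2 fell and 1 rose (23.1% called). Ppargc1b, the coactivator PGC-1beta, read 165, 205 and 163 in control and 41.5, 36.3 and 60.6 in PIK3CA shRNA cells (-1.65, adjusted p = 0.00485), below the median brightness in both groups. Ppargc1a, the coactivator PGC-1alpha, read 830, 768 and 630 in control and 474, 459 and 457 in PIK3CA shRNA cells (-0.65, adjusted p = 0.0213), and all 5 of its probe sets passed as lower among all probe sets, from -1.20 to -0.57. Groups were separate for both coactivators. Without 1 array, the adjusted p of Ppargc1a was above 0.05 in 5 of 6 fits, the highest being 0.0773, and with chromosome medians taken out it was 0.0559. Gabpb1, the beta subunit of GABP, rose by 0.38 (adjusted p = 0.0309) and lies on chromosome 2, with an adjusted p of 0.206 once chromosome medians were taken out, while Nrf1 (-0.17), Gabpa (-0.08), Esrra (0.04), Tfam (0.08) and Pprc1 (0.01) did not pass.

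Among 12 citric acid cycle enzymes, 4 fell and 0 rose (33.3% called), with a median of -0.11. Idh3a, the catalytic subunit of NAD-dependent isocitrate dehydrogenase, read 5892, 5630 and 5469 in control and 4071, 4276 and 4150 in PIK3CA shRNA cells (-0.44, adjusted p = 0.0110). Ogdh, of the oxoglutarate dehydrogenase complex, fell by 0.38 (adjusted p = 0.0345) and Cs, citrate synthase, by 0.34 (adjusted p = 0.0462, and 0.0693 with chromosome medians taken out). Groups were separate for Idh3a. Of 46 assembly factors, 1 rose and 4 fell (median -0.07), with 10.9% called, near the 11.5% of all genes. Surf1, a complex IV factor on chromosome 2, rose by 0.42 (adjusted p = 0.0141, and 0.102 with chromosome medians taken out). Cox19, a copper-handling twin CX9C protein, fell by 0.47 with Pet100 (-0.31). With chromosome medians taken out Cox19 was at -0.32 (adjusted p = 0.0880) and Pet100 at -0.06 (0.646). The 76 mitochondrial ribosomal protein genes had 5 higher and 5 lower (13.2% called) with a median of -0.02. They included Mrpl54 (-0.41), Mrpl33 (-0.32) and Mrps5 (0.55). With chromosome medians taken out, Mrpl33 at -0.16 (adjusted p = 0.142) and Mrps5 at 0.35 (0.101) did not pass. Of 24 import genes, 1 rose and 3 fell (16.7% called, median -0.10). The import motor gene Pam16 was at 0.90, Dnajc15 at -0.41 and Timm17a at -0.29 (adjusted p = 0.0521 with chromosome medians taken out). Of 14 genes for cytochrome c and coenzyme Q synthesis, 2 rose and 1 fell (21.4% called, median -0.07). Coq4 was at 0.50, Coq8b at 0.37 and Coq9 at -0.52, the last at 0.07 by its most variable probe set. With chromosome medians taken out Coq4 was at 0.30 (adjusted p = 0.133) and Coq9 at -0.27 (0.232), neither past the threshold. Cytochrome c itself, Cycs, was at -0.02. The mitochondrial genome was represented by 1 gene, ND5 of complex I, at 11469 in control and 10020 in PIK3CA shRNA cells (-0.20, adjusted p = 0.164).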

How the data were processed

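RNA from 6 samples of 344SQ cells was run on Affymetrix mouse arrays; the labels' protocols refer to the Affymetrix procedure. The deposited intensities are linear, 1 per probe set and array, with the same minimum and maximum on each array and medians of 135, so the authors had brought them to a common distribution by a method not given in the sources used here. The arrays' number limits the precision. Pearson's r between arrays was 0.982 to 0.984 within and 0.974 to 0.977 between groups, across probe sets.

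Each array was scaled to the same median, then log2(intensity + 16) was computed, which understates changes of dim genes. The 64 control probe sets were left out. Platform annotation gave symbols, of which 0 changed by RefSeq (GRCm38.p6). A gene was read from its brightest probe set with 1 symbol. The test was limma 3.58.1, run in R 4.3.3 (two-sided, Benjamini-Hochberg over all 18193 genes, adjusted p 0.05). In simulated data, log2 changes of 0.25, 0.5 and 1 were given to 77, 61 and 62 of 18193 genes. The test recovered 0%, 18% and 56.5% of them, with 5 false calls among 51. The data gave 2093 calls over all genes. The median standard error in the data was 0.062 for the members and 0.112 for all genes. Recovery among genes as bright as the members was not tested. Named were Pik3ca, called members, the extremes of each complex, paralogs, complex II and Cyc1, and up to 3 called genes per outside list; others are examples. Members and lists were chosen with earlier results of these data known. Control and PIK3CA shRNA arrays of the same number did not deviate together (r of 0.05, -0.02 and -0.02). Figures used matplotlib 3.10.9. Alternatives are given in the closing section.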

Additional observations from a re-analysis of the deposited data

How the results depend on the processing

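The median change of the 82 genes was negative in every setting tried. It was -0.14 when each gene was read from its most variable probe set (by interquartile range), -0.14 without chromosomes 2, 5, 6 and 8 (a setting chosen after seeing the data), and -0.15 to -0.12 over the fits without 1 array. Quantile normalization, upper-quartile scaling, pseudocounts of 1 and 64, array weights and cyclic loess (also chosen after seeing the data) gave 13 to 20 members lower and 1 higher. Calls over all genes ranged from 1843 to 2579 there, and both counts were lowest at a pseudocount of 1 and highest at 64. With dim genes left out 24 of the 74 members kept were lower and 2 higher. Of all genes kept 3024 were called there, where 9096 genes lay above the median brightness. The rise was thus not particular to the members, and its cause was not tested. An intensity trend with a robust prior gave 34 lower and 3 higher, and 3192 of all genes. The mean of probe sets gave 9 lower and 0 higher, the most variable probe set 10 and 0, and the same probe sets tested among all probe sets 5 and 0, with 1253 of all genes. At adjusted p 0.01 there were 2 lower, 0 higher and 636 of all genes. Chromosome medians taken out (likewise chosen) left 0 higher, and so did leaving out chromosomes 2, 5, 6 and 8, with 1164 of all genes called.

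Leaving out 1 array gave 3 to 4 lower, 0 higher and 945 to 1138 of all genes. The replicate block gave 0 lower, 0 higher and 413 of all genes; the numbers are not known to pair the arrays, and the block leaves fewer degrees of freedom. Uqcrq turned to 0.23 with the mean of probe sets and to 0.62 with its most variable probe set, where Cox8a turned to 0.063 and Coq9 to 0.068, each a dimmer probe set without a call. Cox4i1 turned to 0.011 with chromosome medians taken out. No detection calls were used, so low values carry no test of presence, and 3 arrays a group limit what changes of this size can show.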
